A study of Mus musculus with 8 samples.

Results

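The T-box factor genes Tbx21 and Eomes and 5 further genes of the Th1 programme, Ifng, Hlx, Cxcr3, Il12rb1 and Il12rb2, were examined for Smad4 binding in mouse CD4+ T cells. They are 7 of the 21775 protein-coding genes used, and were picked as a named gene group. A peak belonged to a gene when its centre lay in the RefSeq body of the gene or in the 50 kb on either side, called the window here; the 7 windows covered 844 kb. ChIP-seq recovers the DNA bound by a protein with an antibody, here against Smad4, and the deposited peak lists say where such DNA was enriched. The cells came from spleen and lymph nodes of C57BL/6 mice, were activated, and were kept for 12 h with IL6 and a TGFbR inhibitor in both groups. The WT group had 2 libraries, both labelled female. The knockout (KO) group had 2 libraries from CD4cre;Smad4fl/fl mice, the first a pool of males and females and the second male. CD4cre is a Cre transgene under Cd4 regulatory sequence that acts in the thymus, in precursors of CD4+ and CD8+ T cells alike. Genotype and sex cannot be told apart, which bears on X-linked Cxcr3 above all. The labels do not say whether replicates were separate animals, so spreads describe these samples.

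Th1 cells are the CD4+ T cells that make interferon-γ. T-bet, the product of Tbx21, is their defining transcription factor; it switches on Ifng, Cxcr3 and the IL-12 receptor, and Hlx is a homeobox factor known to act with it. Eomes encodes a second T-box factor that shares targets with T-bet and is best known in CD8+ T cells and NK cells. TGF-β signalling, whose SMAD proteins share Smad4 as a partner, is a known brake on T-bet and interferon-γ, and T-bet is known to oppose the Th17 programme.

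The WT lists held 27120 and 19792 peaks and the KO lists 564 and 424, and read depth was unknown. At Smad4 itself, the targeted gene, the window held 7 peaks in WT 1, 4 in WT 2, 1 in KO 1 and none in KO 2; positions do not show whether the allele was deleted. Of the CD4 T cell markers all 6 (Cd3e, Cd3d, Cd3g, Cd4, Thy1 and Cd5) had a region called in both WT lists and in no KO list, with 5 to 9 each; the Cd3 genes are neighbours, and the 6 windows held 29 distinct such regions. Over all protein-coding genes the share with such a region was 61.8%. Such a region was also present at all 4 B cell markers, with 1 to 6 each, at 2 of 4 NK cell markers and at 1 of 3 myeloid markers, and at neither of the CD8 markers Cd8a and Cd8b1. The presence of a region in a window of this size thus did not separate T cell from B cell markers.

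In the 7 windows WT 1 had 52 peaks, WT 2 had 31, KO 1 had none and KO 2 had 1. The means were 41.5 ± 14.8 peaks in WT and 0.5 ± 0.707 in KO (SD, n = 2 each). The order of WT 1 and WT 2 was that of their whole lists. The windows took 0.192% of the peaks of WT 1 (exact Clopper-Pearson 95% interval 0.143% to 0.251%) and 0.157% of those of WT 2 (0.106% to 0.222%). In KO 2 the share was 0.236% (1 of 424; 0.00597% to 1.31%), and in KO 1 it was 0 of 564, with an upper limit of 0.652% by the same interval; a count of 0, taken as at most 3 peaks, allows a share of up to 0.532%. These limits cover counting error only. The KO lists were thus too short to show a lower share at these genes than in WT, and the gap in peak number at the 7 genes was not separable from the gap between the whole lists. In 6 of 7 genes, all but Hlx, both WT lists had more peaks than both KO lists; the same was true of 63.2% of all protein-coding genes. For each of these 6 the 2-sided exact permutation test over samples gave p = 0.333, the smallest that 2 against 2 allows, and for Hlx it gave p = 1.

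**Figure D1:**
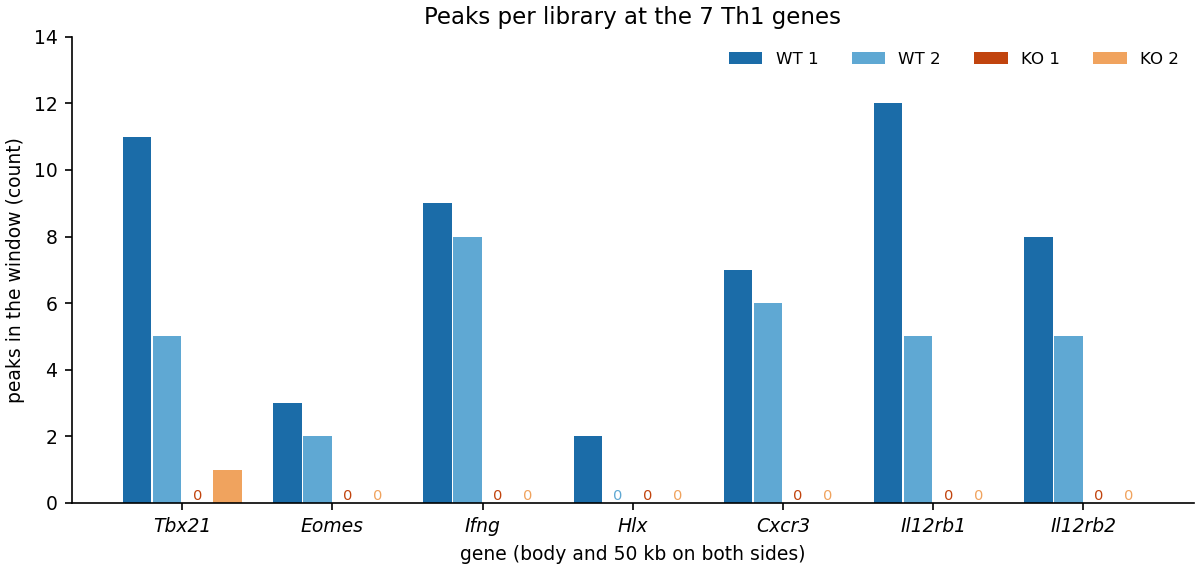
Peaks in each gene window (y axis, count) for the 7 genes (x axis), with 1 bar for each of the 4 libraries and a printed 0 where a list had no peak. WT 1 stood above every other library at each gene, Hlx had peaks in WT 1 alone, and the single KO peak lay in the Tbx21 window.

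Overlapping WT peaks were merged into regions. A region with a peak of both WT lists was called reproducible, and WT-only if it also met no KO peak. The 7 windows held 28 reproducible regions, 27 of them WT-only, besides 24 regions of WT 1 alone and 2 of WT 2 alone. A WT-only region was present at 6 of 7 genes, against 61.8% of all protein-coding genes. The median was 4 WT-only regions per gene over the 7, and 1 over all protein-coding genes, whose upper quartile was 3. Ifng had 7, Cxcr3 6, Il12rb1 5, Il12rb2 4, Tbx21 3, Eomes 2 and Hlx none. Neighbours in this order differed by 1 or 2 regions, less than the 2 WT lists differed from each other at Tbx21, Il12rb1 or Il12rb2. As many as 7 WT-only regions, the number at Ifng, stood in the windows of 4.56% of all protein-coding genes, and at least 3, the number at Tbx21, in 28.1%. Per 100 kb of window the order changed little, from 6.68 regions at Ifng and 5.85 at Cxcr3 to 1.85 at Eomes.

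**Figure D2:**
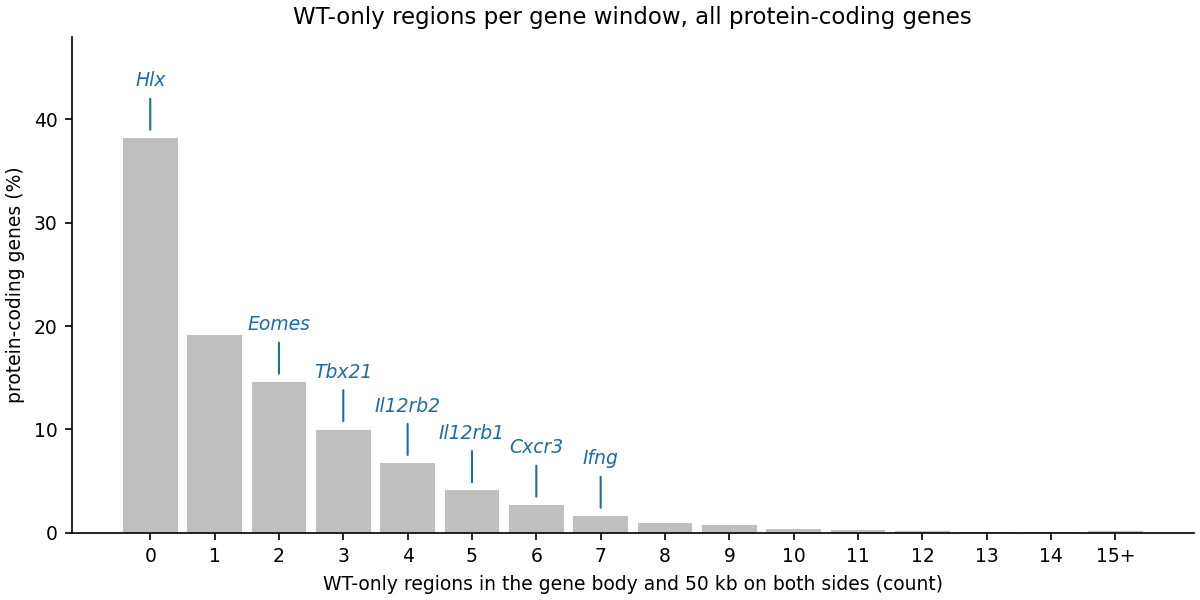
Share of all 21775 protein-coding genes (y axis, percent) by the number of WT-only regions in the gene window (x axis, count, with 15 and more together), with the 7 genes marked at their own number. Hlx stands in the group without a WT-only region and Ifng, with 7, farthest to the right of the 7.

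Tbx21 (chr11:97098007-97115331, minus strand) was bound upstream in both WT lists and within the gene in WT 1 alone. Its window held 11 peaks in WT 1, 5 in WT 2, none in KO 1 and 1 in KO 2 (WT 8 ± 4.24, KO 0.5 ± 0.707; SD, n = 2 each). The groups did not overlap, but the WT lists were as far apart as 11 and 5. The reproducible region nearest to the gene start lay 11.7 kb upstream (chr11:97126579-97127404), with peaks of 826 bp in WT 1 and 774 bp in WT 2. It is also the place of the single KO peak in the 7 windows, 292 bp wide in KO 2 (chr11:97126873-97127164) and wholly inside both WT peaks. A KO peak lay in the window of 5.24% of all protein-coding genes. The next reproducible region followed 13.7 kb upstream (chr11:97128560-97129441), where WT 1 had a peak of 882 bp and WT 2 a peak of 242 bp, the smallest width in that list. Between these regions WT 1 alone had a peak of 462 bp. The remaining reproducible regions, 27.5 and 35.5 kb upstream, lay in Tbkbp1, an adaptor gene of the TBK1 kinase. The 11.7 kb and 13.7 kb regions also lay nearer to Tbkbp1, at 9.18 and 7.17 kb from it, than to Tbx21.

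Within Tbx21 there were 3 peaks, all in WT 1: 410 bp wide at 0.724 kb from the start, 450 bp at 2.23 kb and 240 bp at 5.40 kb. WT 1 also had a peak of 240 bp 4.29 kb upstream. WT 2 had none of these. No peak of any list met the window of 250 bases before to 50 bases after the gene start. Counted from WT 1 alone (without WT 2), Tbx21 had 10 WT-only regions in place of 3, and counted by nearest gene it had none.

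Eomes (chr9:118478186-118486132, plus strand) had few peaks, 3 in WT 1, 2 in WT 2 and none in either KO list (WT 2.5 ± 0.707, KO 0; SD, n = 2 each). The WT counts were next to each other and above those of KO. The region 11 kb past the gene start, and 3.05 kb past the gene end (chr9:118488189-118490176), met the long non-coding RNA gene Gm33460. There the WT lists gave very different widths, 1988 bp in WT 1 and 242 bp in WT 2, and their peak centres lay 815 bp apart, farther than in any other region of the 7 windows with 1 peak of each list. The other reproducible region (chr9:118505980-118506471, with peaks of 380 and 434 bp) covered an end of the neighbouring gene Golga4, which encodes a Golgi protein, and not Eomes. Inside Eomes, WT 1 had a peak of 688 bp centred 0.983 kb past the start, the widest of the 24 regions of WT 1 alone. With an overlap of 50% of both peaks required, Eomes kept 1 WT-only region, the one at Golga4.

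The promoter sequences of both T-box genes are shown because no peak of any list covered them, unlike those of Ifng and Cxcr3 further on. They come from RefSeq on GRCm38.p6 (the mm10 assembly), run 5′ to 3′ along the gene, and lie at chr11:97115282-97115581 on the minus strand and chr9:118477939-118478238 on the plus strand. The nearest WT 1 peak began 470 bases from the Tbx21 promoter and 588 bases from the Eomes promoter; the nearest WT 2 peaks were 11007 and 10009 bases away.
Tbx21: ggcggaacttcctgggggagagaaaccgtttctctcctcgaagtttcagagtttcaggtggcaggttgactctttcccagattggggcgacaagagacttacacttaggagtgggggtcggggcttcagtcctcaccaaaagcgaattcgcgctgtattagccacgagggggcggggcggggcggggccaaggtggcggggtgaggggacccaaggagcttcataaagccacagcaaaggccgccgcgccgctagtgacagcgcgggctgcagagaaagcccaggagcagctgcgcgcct
Eomes: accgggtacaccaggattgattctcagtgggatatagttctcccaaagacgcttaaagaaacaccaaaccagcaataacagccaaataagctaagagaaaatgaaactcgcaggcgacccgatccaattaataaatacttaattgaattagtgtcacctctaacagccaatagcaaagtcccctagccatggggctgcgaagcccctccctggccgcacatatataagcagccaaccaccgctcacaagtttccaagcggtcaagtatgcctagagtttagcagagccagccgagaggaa

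Hlx (chr1:184727143-184732493, minus strand) was the only one of the 7 without a reproducible region. Its window held 2 peaks in WT 1 and none in WT 2, KO 1 or KO 2, so the groups overlapped at none (WT 1 ± 1.41, KO 0; SD, n = 2 each). Both peaks were 240 bp wide, the smallest width in the WT 1 list, and lay 1.66 and 9.05 kb upstream. No other protein-coding gene met this window. Peaks in the WT lists without a reproducible region were found in 8.1% of all protein-coding genes. The nearest peaks beyond the window lay 60.9 kb from the gene in WT 1 and 61.1 kb in WT 2, so a window of 100 kb on both sides gave Hlx 1 WT-only region.

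Ifng (chr10:118441046-118445894, plus strand), the gene of interferon-γ, had the most WT-only regions of the 7, and all lay away from the gene. There were 9 peaks in WT 1, 8 in WT 2 and none in either KO list (WT 8.5 ± 0.707, KO 0; SD, n = 2 each). The WT lists nearly matched in number and both lay above both KO lists. No other annotated gene of any kind met the window, and Ifng was the nearest protein-coding gene to every WT region in it. Distances to non-coding genes beyond the window were not measured. The regions stood on both sides of the gene, 28.1 and 21.8 kb upstream of its start and 10.7, 17.9, 28.2, 29.8 and 54.4 kb past it. Conserved non-coding elements scattered far out on both sides of Ifng are known to control it in T cells and NK cells; whether the regions coincide with these was not tested.

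The WT peaks matched closely in the region 17.9 kb past the start (chr10:118458611-118459218), with 608 bp in WT 1, 438 bp in WT 2 and centres 10 bp apart. In the upstream region at 21.8 kb (chr10:118418923-118419560) they were 494 and 638 bp wide, with centres 36 bp apart. The pair at 28.2 and 29.8 kb (chr10:118469091-118469494 and chr10:118470615-118471103) was of nearly equal width, 372 to 434 bp in both lists. In contrast, the peaks of the region 10.7 kb past the start (chr10:118451139-118452349; 1014 and 412 bp) had centres 498 bp apart, and the region 28.1 kb upstream rested on peaks of 240 and 242 bp, the smallest widths of their lists. The widest region of the 7 windows, 2337 bp (chr10:118494230-118496566), joined a WT 1 peak of 2022 bp with 2 WT 2 peaks; its centre lay 49.5 kb from the gene end, just inside the window, and its right end just beyond it. With 50% of both peaks required to overlap, 4 of the 7 regions were left. Within 10 kb of the gene there was 1.

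WT 1 had a peak of 240 bp over the Ifng start (chr10:118440951-118441190), which WT 2 lacked; the nearest WT 2 peak lay 10843 bases from the promoter. Cxcr3 showed the same arrangement, a WT 1 peak of 512 bp over its start (chrX:101733757-101734268) and none in WT 2, whose nearest peak was 2729 bases away. Both promoters are shown for that reason, from RefSeq on GRCm38.p6, 5′ to 3′ along the gene, with the bases under the WT 1 peak in capitals. These were 145 bases for Ifng (chr10:118440796-118441095, plus strand) and 171 bases for Cxcr3 (chrX:101734098-101734397, minus strand).
Ifng: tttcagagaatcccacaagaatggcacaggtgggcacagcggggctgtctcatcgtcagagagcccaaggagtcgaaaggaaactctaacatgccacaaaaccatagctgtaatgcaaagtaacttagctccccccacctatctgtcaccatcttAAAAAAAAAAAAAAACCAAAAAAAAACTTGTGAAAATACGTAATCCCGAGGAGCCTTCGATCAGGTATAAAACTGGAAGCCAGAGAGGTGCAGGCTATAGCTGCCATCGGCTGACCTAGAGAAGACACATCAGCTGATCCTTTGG
Cxcr3: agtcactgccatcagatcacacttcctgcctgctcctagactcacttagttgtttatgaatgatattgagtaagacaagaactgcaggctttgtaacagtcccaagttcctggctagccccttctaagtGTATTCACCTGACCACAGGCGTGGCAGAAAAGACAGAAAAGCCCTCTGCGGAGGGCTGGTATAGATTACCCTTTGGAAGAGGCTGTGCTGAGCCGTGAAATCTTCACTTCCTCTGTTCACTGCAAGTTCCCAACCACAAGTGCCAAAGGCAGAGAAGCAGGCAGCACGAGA

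Of the 6 genes whose promoter was in the table (all but Il12rb1), 2 had it met by a peak of WT 1 and none by a peak of WT 2. Over the 17491 protein-coding genes with such a sequence, 33.5% were met in WT 1, 30.2% in WT 2 and 27.1% in both. The 6 promoters were searched on both strands for short motifs, as a description of these letters only. The short SMAD motif CAGAC stood in 1 of the 6, that of Hlx, and in 49.6% of all 32851 promoter sequences in the table. The palindrome GTCTAGAC (0.213% of all), the GC-rich SMAD motif GGCGCC (11.9%) and the AP-1 motif TGANTCA (7.81%) stood in none of the 6. Under the WT 1 peak, the Ifng promoter held GGCTCC, another GC-rich SMAD motif (30.8% of all), on the minus strand at bases -46 to -41 from the gene start. The Cxcr3 promoter held the RUNX core TGTGGT (16.8% of all) at 2 places under the peak, both on the minus strand. The STAT motif TTCNNNGAA (8.30% of all) stood in the promoters of Ifng, outside the peak, and Il12rb2. The T-box motif GGTGTGA (3.98% of all) stood in none of the 6. No listed motif was found in the Tbx21 or Eomes promoter. None of these motifs contains another.

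Cxcr3 (chrX:101731535-101734147, minus strand), the chemokine receptor that guides Th1 cells to inflamed tissue, was close to Ifng in number and had the best match between the WT lists among the 7. It had 7 peaks in WT 1, 6 in WT 2 and none in either KO list (WT 6.5 ± 0.707, KO 0; SD, n = 2 each). All 6 WT 2 peaks met a WT 1 peak, and in all 6 regions the centres lay within 62 bp of each other. The gene was flanked by a region 3.32 kb upstream (chrX:101737047-101737888; 842 bp in WT 1 and 576 bp in WT 2) and a region 1.30 kb past its end (chrX:101730017-101730461; 428 and 444 bp). The other 4 stood together 30.9 to 37.7 kb upstream. The widest of these were at chrX:101764447-101765738, with peaks of 1292 and 1100 bp, and at chrX:101766888-101767899, with peaks of 1012 and 808 bp. These 4 lay nearer to the predicted gene Gm4779 than to Cxcr3. The region 34.4 kb upstream, with peaks of 240 and 242 bp, met the pseudogene Tpt1-ps6, where reads can also come from a copy elsewhere, so that position is uncertain.

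X-linked genes had few regions in these lists. A WT-only region was found in the windows of 267 of 963 X-linked protein-coding genes (27.7%), against 64.2% of autosomal ones. As many as the 6 of Cxcr3 stood at 3 X-linked genes, Cxcr3 included, or 0.312%, and at 7.67% of autosomal genes. The WT libraries were female and the KO libraries male or pooled, so the number of X copies and the genotype cannot be told apart here.

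**Figure D3:**
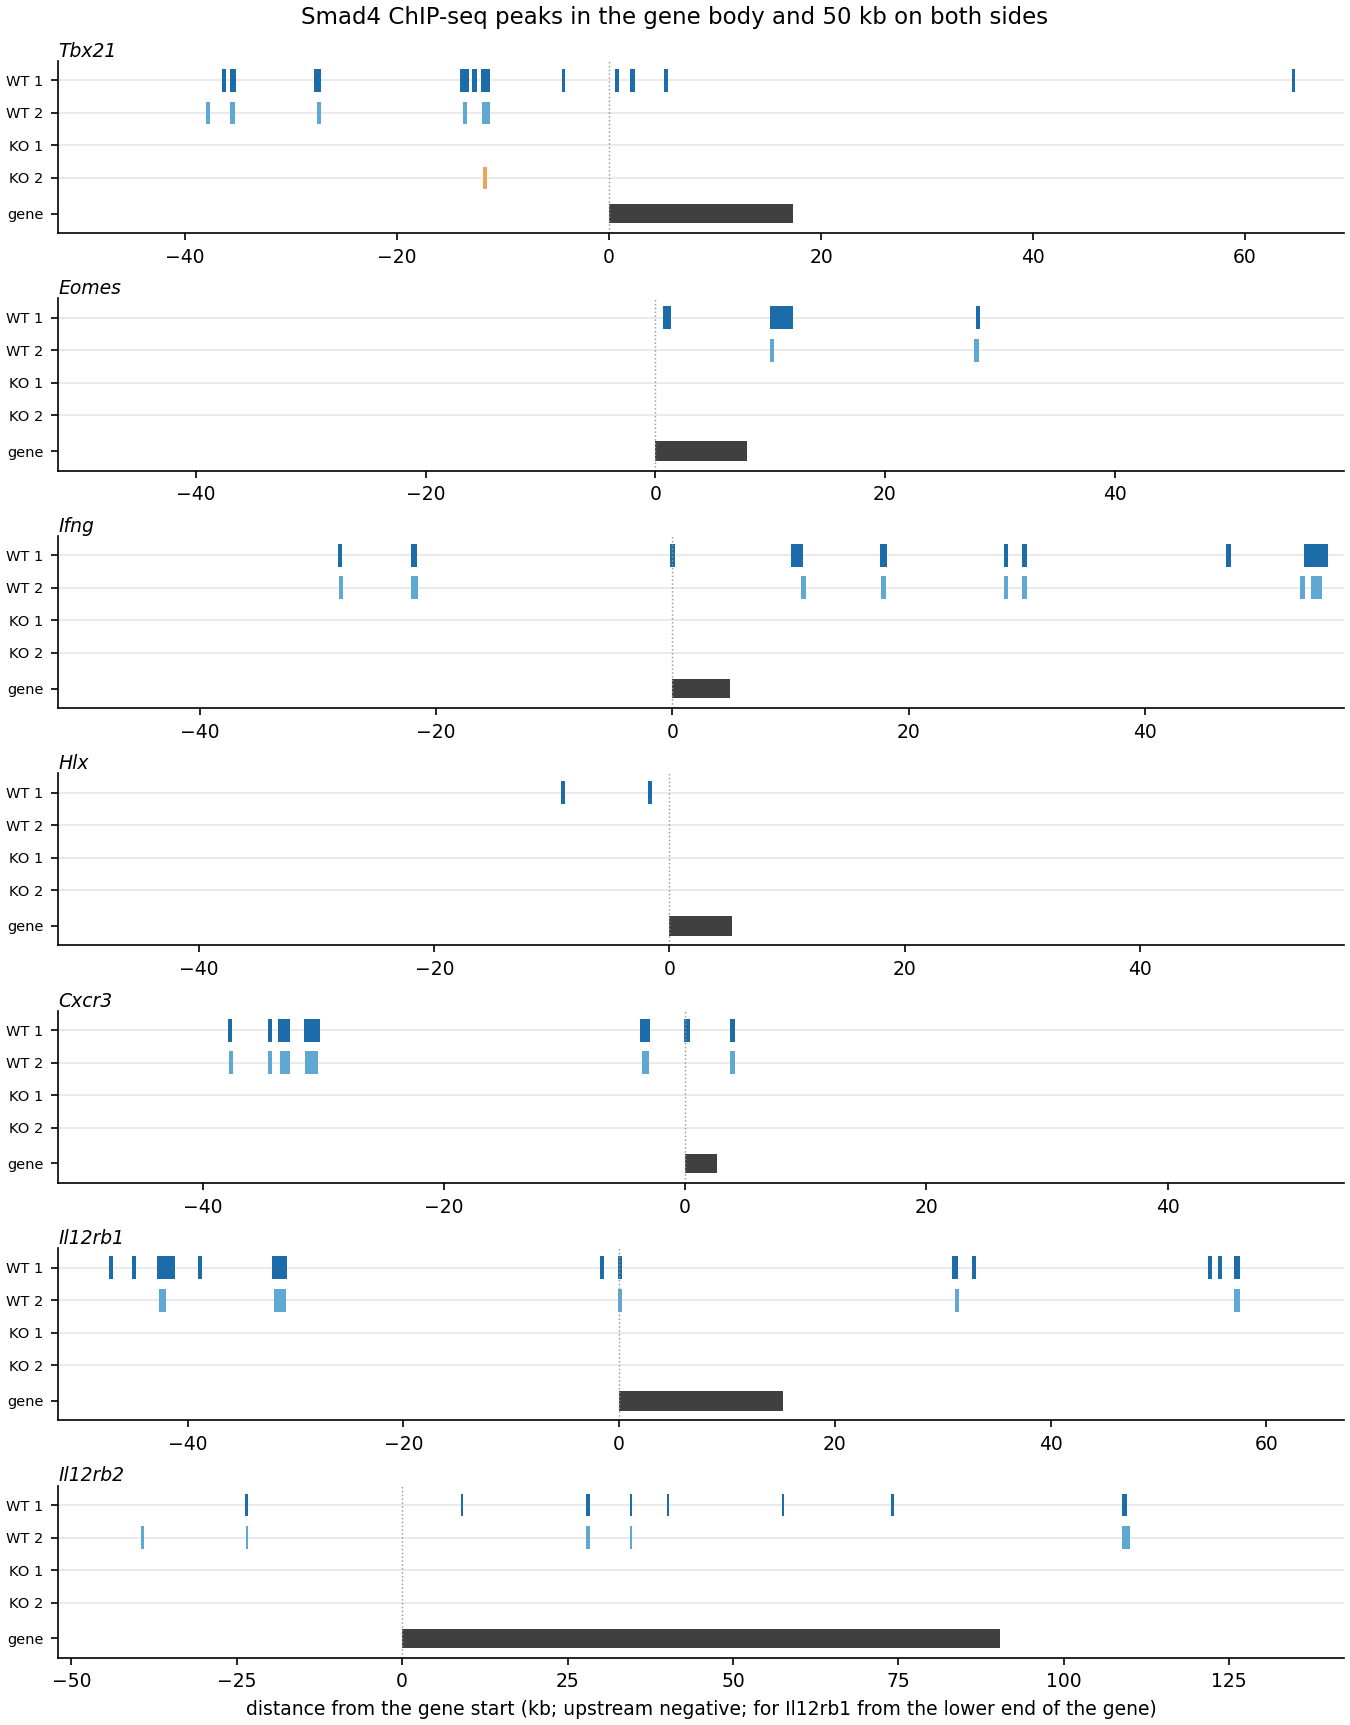
Peaks of the 4 libraries (rows) along each gene window, as distance from the gene start in kb (x axis, upstream negative; for Il12rb1 from the lower end of the gene, whose strand was not in the table), with the gene body in grey. Peaks narrower than 0.35 kb are drawn 0.35 kb wide; peaks at Ifng stand on both sides of the gene, those at Tbx21 called in both WT lists lie upstream, and the KO rows are empty but for 1 peak at Tbx21.

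The receptor for IL-12, the cytokine that drives Th1 cells, is built from the chains encoded by Il12rb1 and Il12rb2; the first is also part of the IL-23 receptor of Th17 cells, while the second is the signalling chain that Th1 cells keep. Il12rb1 (chr8:70808360-70823542) had 12 peaks in WT 1, 5 in WT 2 and none in either KO list (WT 8.5 ± 4.95, KO 0; SD, n = 2 each). Both WT lists lay above both KO lists, and WT 1 lay well above WT 2. It was the only one of the 7 with a reproducible region over an end of its own body, at chr8:70808242-70808613, where peaks of 372 and 318 bp had centres 7 bp apart. WT 1 alone had a further peak of 376 bp 1.56 kb outside that end.

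The other 4 reproducible regions of the Il12rb1 window lay over the starts of neighbouring genes, all 4 on the minus strand. They met Ifi30, a lysosomal reductase gene (1596 and 624 bp), Pik3r2, a PI3-kinase subunit gene (1358 and 1110 bp), Arrdc2 (490 and 242 bp) and the potassium channel gene Kcnn1 (562 and 500 bp). This window met 9 protein-coding genes, the most of the 7. Just outside it, 50.02 kb from the gene in WT 2 and 50.29 kb in WT 1, stood a further pair of peaks (562 and 440 bp); just inside, the farthest was a WT 1 peak at 47.1 kb. Counted by nearest gene, Il12rb1 had 1 WT-only region in place of 5, and from WT 1 alone it had 12.

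Il12rb2 (chr6:67285986-67376293, minus strand) was bound inside its body. It had 8 peaks in WT 1, 5 in WT 2 and none in either KO list (WT 6.5 ± 2.12, KO 0; SD, n = 2 each), with both WT lists above both KO lists. The body held 2 WT-only regions, 28.1 and 34.6 kb past the start (chr6:67347852-67348469 and chr6:67341497-67341868). In the first the peaks were 618 and 554 bp wide with centres 12 bp apart, and in the second 300 and 372 bp wide with centres 26 bp apart. WT 1 alone had 4 more peaks in the body, of 240 to 470 bp. A WT-only region centred in the gene body was found at 2 of the 7 genes, the IL-12 receptor genes, and at 27.3% of all protein-coding genes. Il12rb2 has the longest body of the 7, 90308 bp.

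Upstream of Il12rb2, towards the IL-23 receptor gene Il23r, a WT-only region lay at 23.5 kb (chr6:67399615-67399976; 362 and 242 bp), and it was slightly nearer to Il23r, at 23.1 kb from that gene. WT 2 alone had a peak of 242 bp at 39.3 kb. At the far end of the window the region at chr6:67266303-67267573 (890 and 1146 bp) covered the start of Serbp1. This RNA-binding protein gene overlaps the end of Il12rb2. From WT 1 alone Il12rb2 had 8 WT-only regions in place of 4.

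The WT lists shared part of their peaks in the 7 windows. Of the 52 WT 1 peaks, 28 met a WT 2 peak (53.8%; exact 95% interval 39.5% to 67.8%), against 61.5% in the rest of the genome. Of the 31 WT 2 peaks, 29 met a WT 1 peak (93.5%; 78.6% to 99.2%), against 85.8%. Both shares of the rest of the genome lay inside the intervals. With windows of 10 kb on both sides, 7 of 21 WT 1 peaks met a WT 2 peak (33.3%), so agreement nearer to the genes was lower than over the whole windows. This was not tested. The same share within 10 kb of other genes is not given here, so the drop cannot be called particular to the 7 genes. Among the genes, agreement of WT 1 peaks ran from 6 of 7 at Cxcr3 and 7 of 9 at Ifng to 4 of 11 at Tbx21, 5 of 12 at Il12rb1 and 0 of 2 at Hlx. Peaks seen in 1 list were narrow: the median width of WT 1 peaks was 592 bp where WT 2 had a peak and 302 bp where it did not, and both WT 2 peaks without a partner were 242 bp wide. The rest of the genome showed the same pattern, with medians of 588 and 304 bp in WT 1. In 20 of the 27 reproducible regions with 1 peak of each list the centres lay within 100 bp, and their median distance was 54 bp. The 27 WT-only regions had a median width of 612 bp, against 644 bp for all 15882.

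**Figure D4:**
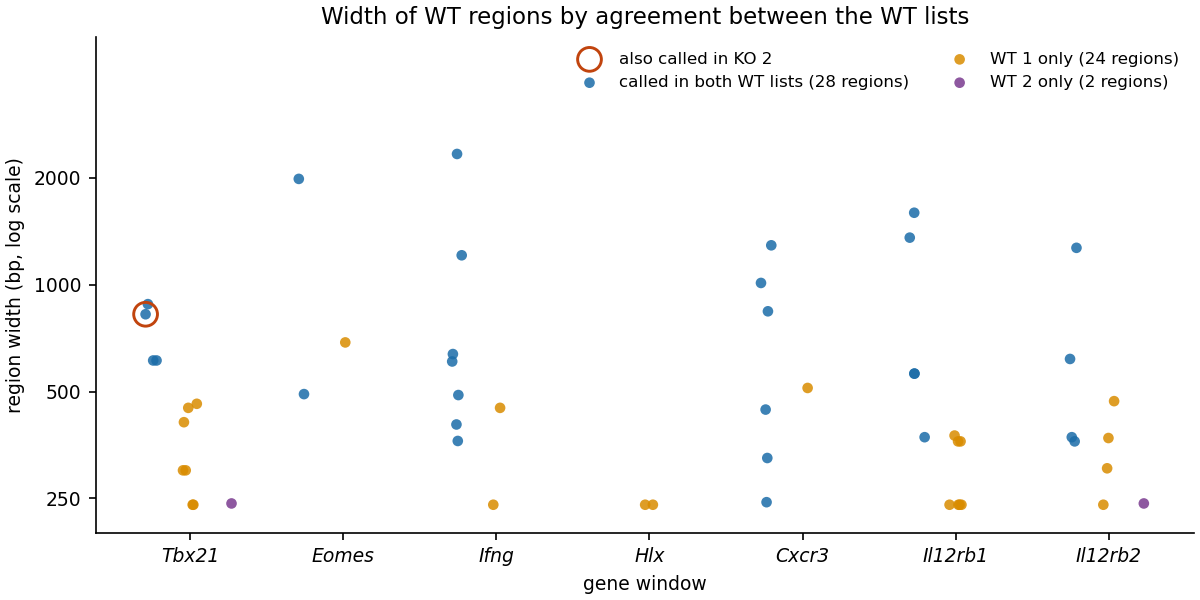
Width of each WT region (y axis, bp, log scale) by gene window (x axis), coloured by the WT lists that called it; the ring marks the region at Tbx21 also called in KO 2. Regions called in both lists reach 2337 bp, while those of 1 list stay at or under 688 bp.

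Of the 27 WT-only regions, 13 lay nearest to 1 of the 7 genes, and 7 of these 13 were at Ifng. The other 14 lay nearer to, or inside, another protein-coding gene. Of the 27, 8 were centred within 1 kb of an end of a protein-coding gene, Il12rb1 or a neighbour. The same shares of all 15882 WT-only regions are not given here, so this placement cannot be called particular to the 7 genes. A WT-only region within 10 kb was found at 5 of 7 genes, all but Tbx21 and Hlx, and at 44.1% of all protein-coding genes.

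Other genes of the Th1 programme also held WT-only regions. Of 20 other Th1 genes, 19 had a WT-only region in the window, against 61.8% of all protein-coding genes, with a median of 4.5 per gene against 1; Twist1, which restrains Th1 cytokines, had no peak in any list. Tnf and its neighbour Lta, genes of the TNF family of cytokines, had the most, 13 each, and share most of their windows. Stat4, which carries the IL-12 signal, had 8 WT-only regions, with 20 peaks in WT 1, 12 in WT 2, 3 in KO 1 and none in KO 2. Jak2, a kinase of the IL-12 receptor, had 7 and no KO peak. The chemokine receptor gene Cxcr6 and the inhibitory receptor gene Havcr2, which encodes TIM-3, had 6 each, and both had peaks in both KO lists. Tyk2, the other kinase of the IL-12 receptor, also had 6, with 1 peak in KO 1 and none in KO 2. A KO peak stood in the windows of 10 of these 20 genes and of 1 of the 7, against 5.24% of all protein-coding genes; Tnf and Lta count the same KO 2 peak.

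All 7 Th2 genes and all 6 Th17 genes also had a WT-only region in the window, against 61.8% of all protein-coding genes. With windows of 10 kb this count of 13 fell to 7, and by nearest gene to 8, while the 7 Th1 genes gave 5 under both settings and the 20 other Th1 genes gave 16 and 18. Over all protein-coding genes the shares were 44.1% with 10 kb and 36.4% by nearest gene. The differences between the lists were not tested. The medians were 3 per gene for the Th2 list and 1 for the Th17 list. In the 50 kb windows, the only WT-only region at Il23r was the one 23.5 kb upstream of Il12rb2, counted for both genes. Gata3, the defining Th2 factor gene, had 3 WT-only regions, all in its body. Tbx21, which defines Th1 cells, had 3 and none in its body. The difference in place between these genes was not tested. Among the signature cytokine genes, Ifng had 7 WT-only regions, Il4 2 and Il17a 1. The Il13 window shares parts with those of Il4 and Il5, which do not meet each other. The windows of Il17a and its neighbour Il17f also meet, and the region at Il17a was counted for both.

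**Figure D5:**
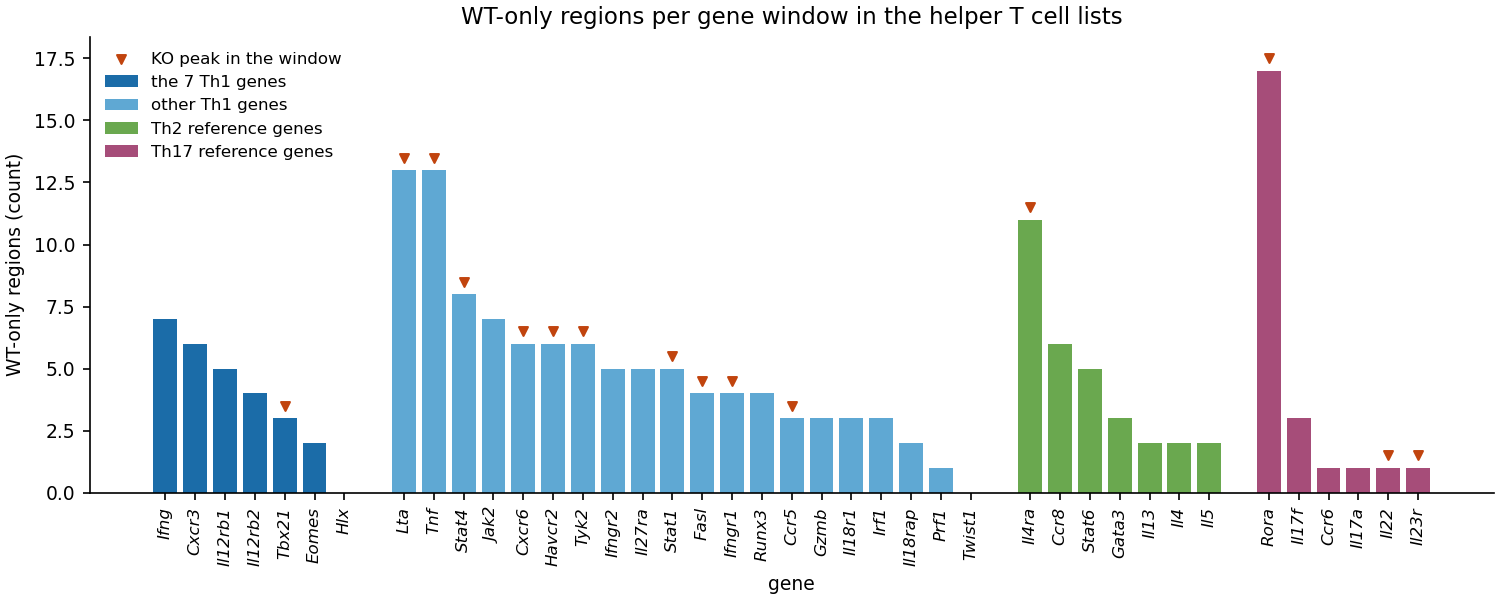
WT-only regions per gene window (y axis, count) for the 7 Th1 genes, 20 other Th1 genes and the lists of 7 Th2 and 6 Th17 genes (x axis, ordered by number within a list); triangles mark windows with a KO peak. Ifng stands highest of the 7, below Tnf, Lta and Stat4 of the other Th1 genes and below Rora and Il4ra.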

How the data were processed

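Smad4 ChIP-seq peak lists of 2 WT and 2 KO samples were used; the 4 input samples were not analysed here. The authors deposited, per sample, the chromosome, start and end of each peak, and nothing on peak strength. Trim Galore, Bowtie, HOMER 4.8.3 and mm10 are listed, with no role for each, per the submitters' processing notes; for thresholds, read depth and input use, the sources used here give nothing. A longer list can follow depth as well as binding. Starts were converted to 1-based.

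Gene bounds came from RefSeq on GRCm38.p6; of 21896 protein-coding genes, 21775 were used, leaving out mitochondrial genes and, except on Y, genes that start below 3 Mb. Strand was taken from the promoter table. Peaks sharing at least 1 bp were merged. All genes were counted by the same rule to give the background shares, and the exact permutation test was run on every gene. Region counting was checked on simulated lists. The members and lists were chosen with earlier results of these data known. The text names all 7 genes with their reproducible regions, up to 6 other Th1 genes by number of WT-only regions (ties by symbol), and Gata3, Il4 and Il17a, while a further gene of this rule is not reported here or counted in its list; Twist1, Tyk2, the genes met by regions and the markers were named besides, after their values were seen. Alternatives were other windows, stricter overlaps, wider peaks only, the nearest gene, a KO distance of 1 kb, leaving out each list and pairing by number. Python 3.11.15, numpy 2.4.6, pandas 2.3.3, SciPy 1.17.1 and matplotlib 3.10.9 were used.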

Additional observations from a re-analysis of the deposited data

How the results depend on the processing

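The WT minus KO difference of 41 peaks in the 7 windows fell to 14 with windows of 10 kb and to 21 with peaks nearest to the gene itself, both of which hold fewer peaks by construction. Leaving out each list in turn gave 30.5 to 51.5 peaks. It also gave 6 to 7 of the 7 genes with a WT-only region, and 19 of the 20 other Th1 genes each time. Without a WT list, a region needed a peak of the remaining WT list only, and without a KO list, fewer regions were excluded. These rules are looser, so the gene counts could hardly fall, and Twist1 had no peak in any list. The unchanged counts therefore do not show stability. With 10 kb the other Th1 genes were 16, and by nearest gene 18. The 6 genes ranged from 5 (10 kb, nearest gene) to 7 (100 kb) over the other settings. Over all protein-coding genes the share was 44.1% with 10 kb, 36.4% by nearest gene and 71.2% with 100 kb. That share is not given for the lists left out in turn. The Th2 and Th17 count of 13 fell to 7 with 10 kb and to 8 by nearest gene. Agreement of WT 1 peaks fell from 53.8% to 33.3% with 10 kb and to 46.4% by nearest gene. It fell to 40.4% both with 50% overlap of both peaks and with centres within 100 bp. Agreement was 52.5% with wider peaks only and 54.5% with 100 kb. The cause of these differences was not tested. By gene the WT-only count ran from 0 to 10 at Tbx21, 1 to 4 at Eomes, 1 to 9 at Ifng, 0 to 2 at Hlx, 2 to 7 at Cxcr3, 1 to 12 at Il12rb1 and 2 to 8 at Il12rb2. Counting peaks that only touch the window, an alternative chosen after seeing the data, gave 41.5 peaks. With a replicate block the difference stayed 41, by construction. Here genes were counted by peaks in the window, not by WT-only regions. In 6 of the 7 genes WT 1 had more peaks than KO 1 and WT 2 more than KO 2. The same was true of 63.4% of all protein-coding genes. The replicate numbers come from the sample titles. Across 15342 genes with a peak, the differences WT 1 minus WT 2 and KO 1 minus KO 2 had a correlation of 0.00655. Only 1142 protein-coding genes had a KO peak, so most had no KO difference to correlate. This value therefore cannot show whether samples of the same number form pairs. Read depth, which is unknown, limits what the short KO lists can show.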
